A study of Mus musculus with 6 samples.

Results

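The genes described here encode the receptor for interleukin 3 and related cytokine receptors. The 8 genes are Il3ra, Csf2rb, Csf2rb2, Il2ra, Il2rg, Il4ra, Il7r and Crlf2, and their members on the array were all probe sets annotated to any of them, 13 of 45101 probe sets. Of the 8 genes, 7 had a probe set, and Il2rg carried none in the annotation table used here, so no value is given for it. Of the 13 probe sets, 12 had exactly 1 gene symbol and 1 was annotated to Csf2rb2 and Csf2rb together. A filter on dim signals passed 9 probe sets of 6 genes. Il7r and the third probe set of Il4ra lay below it.

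RNA came from Ba/F3 cells, an immortalised line of mouse B-lymphoid precursors that depends on interleukin 3. All cultures carried the same Retro-X Tet-on Advanced construct for NCOR1-LYN, a fusion of parts of the corepressor NCOR1 and the tyrosine kinase LYN. Control cells, labelled NCOR1-LYN(-), were DOX(-), and NCOR1-LYN(+) cells were DOX(+), with 3 arrays per group numbered 1 to 3. The dose and duration of doxycycline, the cytokine in the medium and whether the line is 1 clone are not given in the sources used here. Doxycycline and the fusion cannot be told apart, because no DOX(+) cells without the construct were part of the comparison, and no value of the fusion's own RNA was used. Nothing in the labels shows how far the 3 cultures of a group were independent, so each p-value measures a spread between arrays that may be technical.

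Receptors of this kind have no kinase of their own. A ligand joins a private alpha chain to a shared signalling chain, the JAK kinases bound to the chains phosphorylate them, and STAT factors dock there and move to the nucleus. In the mouse, Il3ra encodes the alpha chain that binds interleukin 3. Csf2rb encodes the beta chain shared by the receptors for interleukin 3, GM-CSF and interleukin 5, and Csf2rb2 a close copy of that chain that serves interleukin 3 alone. Il2ra and Il4ra encode chains for interleukins 2 and 4, Il7r a chain shared by the receptors for interleukin 7 and TSLP, Crlf2 the other chain of the TSLP receptor, and Il2rg the common gamma chain of many of these receptors.

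The deposited values are MAS5 signals on a linear scale, each array scaled to the same trimmed mean. Median signals ran from 54.8 to 61.9. Both replicate 1 arrays lay apart from the other 4 on the first principal component, which held 58.0% of the variance (−37.2 and −24.9, against 12 to 18.6). Of 11 markers of B lymphoid precursors with a probe set, 7 were below a signal of 64 on all arrays, among them Ebf1, Rag1 and Vpreb1, and Cd79b was the only one above 64 on all arrays. The summed signal of 11 myeloid markers was 2507 to 2890 in control and 7577 to 10502 in NCOR1-LYN arrays, and that of 8 markers of mast cells and basophils 843 to 1891 and 1905 to 4685. In these sums the groups did not overlap, but the mast cell sum was near equal in control 1 (1891) and NCOR1-LYN 1 (1905). Of all genes tested, 5.18% were higher without overlap of the groups. Most of the myeloid sum in NCOR1-LYN arrays was Ngp and Prtn3. Ngp gave 153, 1216 and 1097 in control and 4118, 4686 and 4513 in NCOR1-LYN arrays. Cebpa and Csf3r were below 64 on all arrays. S100a8 and S100a9 were higher with NCOR1-LYN in replicate 1 and lower in replicates 2 and 3. In NCOR1-LYN arrays most of the mast cell sum was Fcer1a, a chain of the IgE receptor, with 975, 388 and 341 in control and 1596, 4386 and 3721 in NCOR1-LYN arrays. Cma1, the mast cell chymase gene, was lower in every NCOR1-LYN array than in any control array, as were 6.06% of all genes tested. Its signals were 615, 189.6 and 186 in control and 80.5, 5.74 and 52.4 in NCOR1-LYN arrays. Their part in the receptor results was not tested, and in bulk RNA fewer cells of a type and less RNA per cell cannot be told apart.

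Among the receptor genes, those of the beta chains had the widest spread between same-numbered pairs. With NCOR1-LYN, Csf2rb and Csf2rb2 were higher than control in replicates 2 and 3 and lower in replicate 1. The brighter probe set of Csf2rb (1455660_at) had signals of 22251, 12964 and 12267 in control replicates 1, 2 and 3 and 13827, 20743 and 25885 in NCOR1-LYN replicates 1, 2 and 3. The groups overlapped. Control 1 and NCOR1-LYN 2 and 3 were the high arrays, and NCOR1-LYN 1 and control 2 and 3 the low ones. In replicates 2 and 3 the mean signal with NCOR1-LYN was 1.85 times that of control, and in replicate 1 it was 0.621 times. The second probe set of Csf2rb (1421326_at) gave 13524, 5763 and 5019 in control and 7296, 10903 and 12515 in NCOR1-LYN cells. Its ratios were 2.17 in replicates 2 and 3 and 0.54 in replicate 1, and the same 3 arrays were high.

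Csf2rb2 (1449360_at), the copy used by interleukin 3 alone, gave 19369, 8537 and 7821 in control and 9548, 14276 and 15286 in NCOR1-LYN cells. Its ratio was 1.81 in replicates 2 and 3 and 0.493 in replicate 1, again with control 1 and NCOR1-LYN 2 and 3 on the high side. The probe set annotated to both genes (1450200_s_at) cannot be assigned to either, and gave 3481, 1060.5 and 964 in control and 1903, 2379 and 2653 in NCOR1-LYN cells. It had the same high and low arrays. Over the 6 arrays the log2 signals of the 2 Csf2rb probe sets correlated at r = 0.96, and those of Csf2rb2 with them at 0.94 and 0.98. These probe sets share arrays, and probes of near-identical copies can share signal, so the 4 probe sets are not separate support for one another.

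The genes Csf2rb2 and Csf2rb neighbour each other, with 0 annotated genes between them in RefSeq (GRCm38.p6). The promoter of Csf2rb2 is shown because this gene moved with its neighbour and holds a match to the STAT5-type motif TTCNNNGAA, in capitals. The window runs from 250 bases before to 50 after the gene's start, at chr15:78305672-78305971 on the minus strand, and the sequence is from RefSeq (GRCm38.p6).
Csf2rb2: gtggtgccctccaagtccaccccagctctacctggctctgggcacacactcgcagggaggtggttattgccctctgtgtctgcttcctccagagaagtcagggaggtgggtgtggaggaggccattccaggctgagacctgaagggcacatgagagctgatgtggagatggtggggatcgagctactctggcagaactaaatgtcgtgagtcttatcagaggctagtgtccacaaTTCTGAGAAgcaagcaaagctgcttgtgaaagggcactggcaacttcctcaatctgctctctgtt
The match, TTCTGAGAA, lies 15 to 7 bases before the start. The motif reads the same on both strands. Of 32851 promoter windows of the same length, 8.30% held it, as did 2 of the 7 windows of these receptor genes, Csf2rb2 and Il7r. The STAT6-type motif TTCNNNNGAA was in 6.95% of all windows and in 0 of these 7. The table had windows of 7 of the receptor genes, and a match is a description of letters only.

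Il3ra (1419712_at), the ligand-binding alpha chain, differed little between the groups. Its signals were 719.7, 462 and 403 in control and 727, 511 and 442 in NCOR1-LYN cells. Both replicate 1 arrays were the high ones, and each pair differed little, with log2 changes of 0.01, 0.13 and 0.12. The log2 fold change was 0.09 ± 0.25 (SE) with a 95% interval of −0.50 to 0.67 in limma. With the replicate number as a block the interval was −0.17 to 0.35. The arrays do not exclude a change within these intervals. All log2 values here are differences of log2(signal + 64), which understate changes of dim genes.

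**Figure D1:**
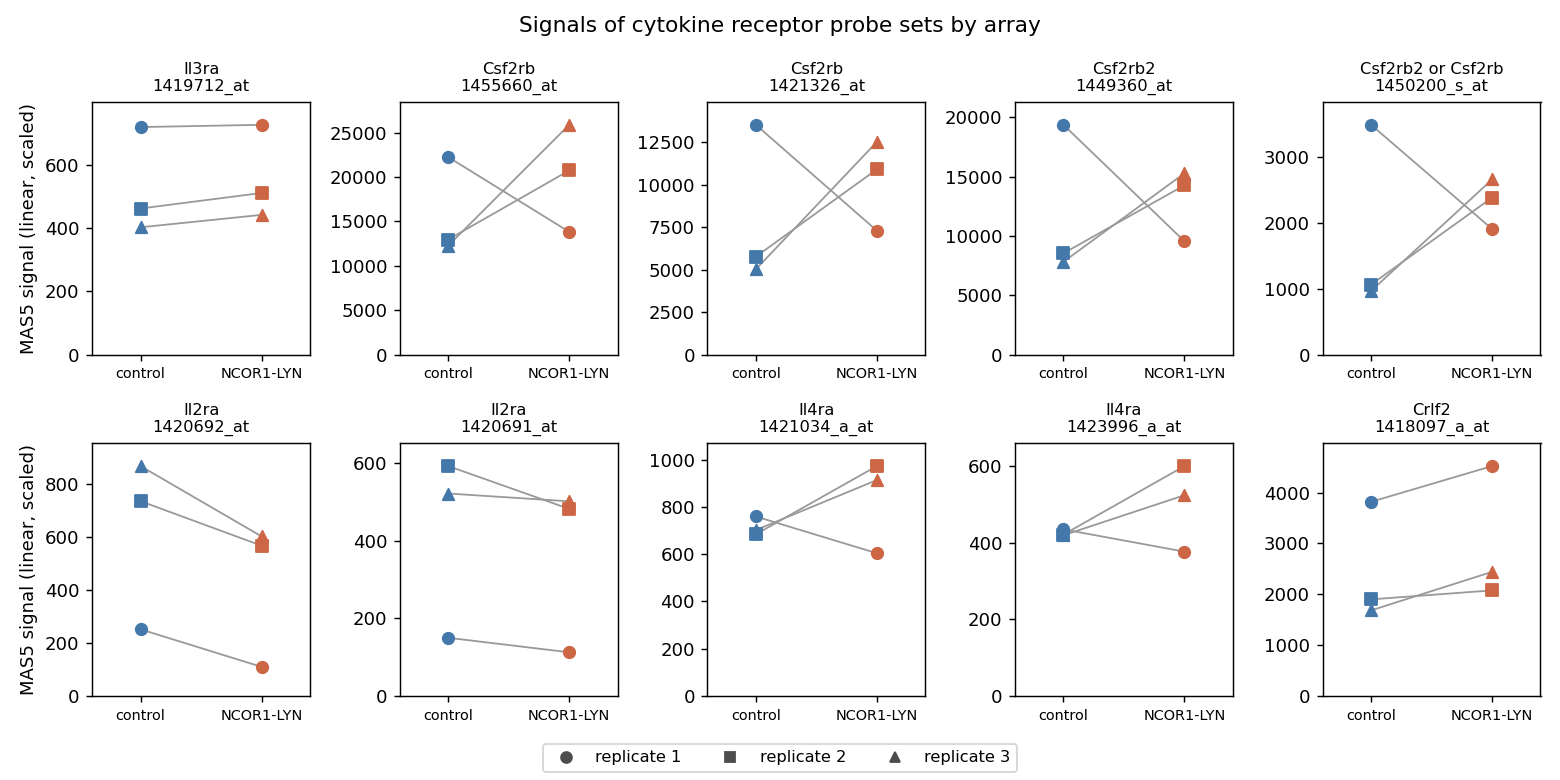
MAS5 signal on a linear axis from 0 (scaled by the authors) of the 10 receptor probe sets with every signal above 64, in control (blue) and NCOR1-LYN (orange) arrays, with a symbol per replicate number and a grey line joining same-numbered arrays. The lines of replicate 1 fall while those of replicates 2 and 3 rise for Csf2rb, Csf2rb2 and Il4ra, and the replicate 1 arrays stand high for Il3ra and Crlf2 and low for Il2ra in both groups.

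Il4ra, which encodes the interleukin 4 receptor alpha chain, moved across the pairs as the beta chains did, by smaller steps. Its brightest probe set (1421034_a_at) gave 759, 684 and 702 in control and 604, 973 and 913 in NCOR1-LYN cells. The groups overlapped through NCOR1-LYN 1, the lowest of the 6 arrays. The second probe set (1423996_a_at) gave 435, 422 and 420.0 in control and 377, 601 and 525 in NCOR1-LYN cells, with the same array lowest. The ratio in replicates 2 and 3 was 1.36 and 1.34 in these probe sets, and in replicate 1 it was 0.795 and 0.866. The third (1447858_x_at) was dim, with 4 of 6 signals below 64, and gave 19.9, 31.1 and 19.0 in control and 6.33, 65.9 and 107 in NCOR1-LYN cells.

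Il2ra, the interleukin 2 receptor alpha chain also known as CD25, was lower with NCOR1-LYN in each same-numbered pair, and far lower in replicate 1 of both groups. Its brighter probe set (1420692_at) gave 251, 735 and 867 in control and 109, 567 and 602 in NCOR1-LYN cells. The replicate 1 arrays were the lowest in each group, and the groups overlapped through control 1. The pairs had log2 changes of −0.86, −0.34 and −0.48. The second probe set (1420691_at) gave 149.9, 593 and 522 in control and 112, 483 and 502 in NCOR1-LYN cells. It had smaller pair changes of −0.28, −0.27 and −0.05, so the 2 probe sets differed in the size of the change and were alike in the low replicate 1 arrays.

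Crlf2 (1418097_a_at), the TSLP receptor chain, was higher with NCOR1-LYN in each pair and high in replicate 1 of both groups. Its signals were 3820.2, 1900 and 1683 in control and 4524, 2077 and 2442 in NCOR1-LYN cells. The groups overlapped through control 1, the second highest array. The pairs had log2 changes of 0.24, 0.12 and 0.52. Il7r, the partner chain of Crlf2 and a chain that B-lymphoid precursors use, was dim on all arrays. Its probe set 1448575_at gave 4.16, 43.7 and 34.4 in control and 22.9, 39.7 and 42.9 in NCOR1-LYN cells. Its probe set 1448576_at gave 15.7, 21.9 and 25 in control and 3.96, 2.23 and 1.73 in NCOR1-LYN cells, without overlap but with all 6 signals below 64, where MAS5 signals are noisy. Without the filter, the last had an adjusted p of 0.555 in limma over probe sets, or 0.405 with the replicate block.

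The promoters of the genes that stood high (Il3ra and Crlf2) or low (Il2ra) in replicate 1 are shown for their contrast in CG dinucleotides, which are in capitals. Each window has 300 bases, from RefSeq (GRCm38.p6), at chr14:14346245-14346544 on the plus strand, chr5:109558944-109559243 on the minus strand and chr2:11642542-11642841 on the plus strand.
Il3ra: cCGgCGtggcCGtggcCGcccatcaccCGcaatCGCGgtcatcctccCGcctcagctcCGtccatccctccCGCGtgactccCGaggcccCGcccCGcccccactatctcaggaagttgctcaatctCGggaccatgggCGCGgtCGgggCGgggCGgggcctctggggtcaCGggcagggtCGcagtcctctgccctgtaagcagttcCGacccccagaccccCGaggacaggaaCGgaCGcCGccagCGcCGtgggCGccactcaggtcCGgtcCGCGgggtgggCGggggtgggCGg
Crlf2: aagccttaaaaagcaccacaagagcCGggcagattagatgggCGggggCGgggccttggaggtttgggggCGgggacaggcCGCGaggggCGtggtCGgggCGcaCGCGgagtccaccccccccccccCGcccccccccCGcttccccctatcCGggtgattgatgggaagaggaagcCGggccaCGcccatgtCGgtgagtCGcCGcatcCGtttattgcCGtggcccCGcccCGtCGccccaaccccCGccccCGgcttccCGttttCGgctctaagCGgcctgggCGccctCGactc
Il2ra: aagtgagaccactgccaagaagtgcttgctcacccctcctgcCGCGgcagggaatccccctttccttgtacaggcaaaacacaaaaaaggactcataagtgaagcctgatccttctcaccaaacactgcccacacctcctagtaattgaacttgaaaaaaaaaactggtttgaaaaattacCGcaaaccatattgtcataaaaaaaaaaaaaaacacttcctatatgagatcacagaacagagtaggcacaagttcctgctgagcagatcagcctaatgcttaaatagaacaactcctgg
Il3ra held 35 CG dinucleotides, more than 93.0% of all promoter windows, and Crlf2 held 31, more than 89.4%. Il2ra held 3, as did Csf2rb2, more than 23.3% of all windows, against a median of 7. Il4ra, with 25, was also rich in them, though its replicate 1 arrays did not both stand high. These promoters were picked after the array values were seen, and a relation of the count to the pattern across arrays was not tested.

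The design sets NCOR1-LYN cells against uninduced cells, to find the genes that changed on giving doxycycline. Of the 6 receptor genes tested, each by its brightest probe set, 0 passed an adjusted p of 0.05 in limma, against 9 of 10916 genes (0.0824%). Unadjusted p was under 0.05 for 0 of the 6, against 519 of all genes. All 6 had an adjusted p of 0.999. Csf2rb had a log2 fold change of 0.35 with a 95% interval of −0.34 to 1.05, Csf2rb2 of 0.23 (−0.61 to 1.06), Il4ra of 0.17 (−0.27 to 0.62), Crlf2 of 0.30 (−0.59 to 1.18) and Il2ra of −0.56 (−1.97 to 0.85). The intervals of Csf2rb, Csf2rb2, Crlf2 and Il2ra reach past a 2-fold change in this fit without a block. It thus does not show that these genes stayed the same. The median over the 6 genes was 0.20, with 5 above 0, against a median of −0.01 over all genes tested, of which 47.2% were above 0.

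With the replicate number as a block, 0 receptor genes passed in limma, against 90 of all genes (0.824%). Unadjusted p in limma with the block was under 0.05 for 2 of the 6, against 1233 of 10916 genes. They were Il2ra (−0.56 ± 0.14, unadjusted p = 0.00521 in limma) and Crlf2 (0.30 ± 0.11, unadjusted p = 0.0299), and their adjusted p was 0.173 and 0.369. The second probe set of Il2ra (1420691_at) had −0.20 ± 0.13 with the block (unadjusted p = 0.154 in limma, adjusted p = 0.614). Il2ra, Crlf2 and Il3ra changed the same way in all 3 pairs, as did 15.9% (higher) and 18.9% (lower) of all genes tested. In the fit over probe sets, 0 of the 9 receptor probe sets passed, against 7 of 20967 (0.0334%), and 0 passed with the block, against 152 (0.725%). None of the 9 had groups without overlap, against 5.60% (higher) and 5.24% (lower) of all probe sets tested.

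**Figure D2:**
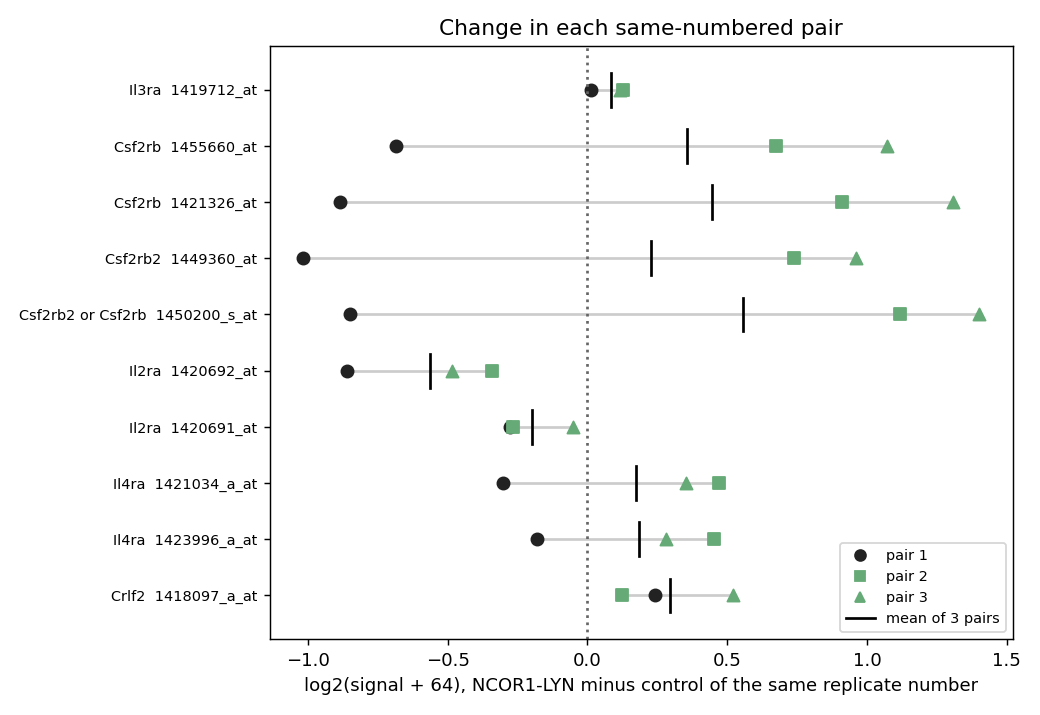
Change in log2(signal + 64) from control to NCOR1-LYN in each same-numbered pair (black circle, pair 1, and green square and triangle, pairs 2 and 3), with the mean of the 3 pairs as a black bar, for the 10 receptor probe sets with every signal above 64. Pair 1 lies left of 0 and the other pairs right of it for Csf2rb, Csf2rb2, their shared probe set and Il4ra, while Il2ra is left of 0 and Il3ra and Crlf2 are right of 0 in all 3 pairs.

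The change in the replicate 1 pair was compared with that in the other pairs by an interaction term in limma. This test was set up with the unlike pairs already known, so it gives the size of the difference and is no independent evidence of it. The replicate 1 array of each group is single and was assumed to vary like replicates 2 and 3. Of the 6 receptor genes 3 passed, against 1314 of 10916 genes (12%), and all 3 had a more negative change in the replicate 1 pair, as had 6.82% of all genes. The difference was −1.86 ± 0.12 for Csf2rb2 (adjusted p = 7.95e-05 in limma), −1.56 ± 0.17 for Csf2rb (adjusted p = 0.000873) and −0.71 ± 0.15 for Il4ra (adjusted p = 0.0185). Of the 10916 genes, 13 had a more negative difference than Csf2rb2 and 31 than Csf2rb. Il2ra had −0.45 ± 0.21, Il3ra −0.11 ± 0.20 and Crlf2 −0.08 ± 0.16, and did not pass. Over probe sets 4 of 9 passed, against 6.97% of all, namely both of Csf2rb, that of Csf2rb2 and the brightest of Il4ra.

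The arrangement of the arrays behind this, with control 1 and NCOR1-LYN 2 and 3 all above NCOR1-LYN 1 and control 2 and 3, held for 3 of 6 receptor genes, Csf2rb, Csf2rb2 and Il4ra. It held for 482 of 10916 genes (4.42%), and the reverse for 3.27%. The arrangement was taken from the values of these receptor genes, and probes of Csf2rb and Csf2rb2 can share signal. Its count among the receptor genes is thus a description and no test. Among the myeloid markers, Prtn3, which encodes proteinase 3, had the same arrangement, but narrowly, with a log2 change of −0.01 in the replicate 1 pair. It gave 1763, 932 and 891 in control and 1746, 4326 and 4782 in NCOR1-LYN cells, with an interaction of −2.25 (adjusted p = 6.03e-05 in limma). Ltf, the lactoferrin gene, did not have this arrangement, with 36.9, 60.4 and 85.1 in control and 657, 502 and 541 in NCOR1-LYN cells. Both were chosen after their values were seen.

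Replicate 1 was also compared with replicates 2 and 3 over both groups, in the same fit, a comparison chosen after the data were seen. Of 6 receptor genes 5 differed in limma, against 5475 of 10916 genes (50.2%, with 28% higher and 22.1% lower in replicate 1), so the share called was large throughout. Both replicate 1 arrays stood above the other 4 for Il3ra and Crlf2, as for 26.8% of all genes, and below them for Il2ra, as for 21.4%. Averaged over the groups, Crlf2 was higher in replicate 1 by 1.03 ± 0.08 on the log2 scale (adjusted p = 1.03e-05 in limma). Il3ra was higher by 0.61 ± 0.10 (adjusted p = 0.000832) and Csf2rb2 by 0.31 ± 0.06 (adjusted p = 0.00232). Il2ra was lower, with −1.68 ± 0.10 (adjusted p = 3.65e-06), and so on average was Il4ra, with −0.24 ± 0.08 (adjusted p = 0.0287). Of all genes tested, 17 had a more negative difference than Il2ra and 211 a more positive one than Crlf2. Csf2rb, with 0.04 ± 0.08, did not pass.

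**Figure D3:**
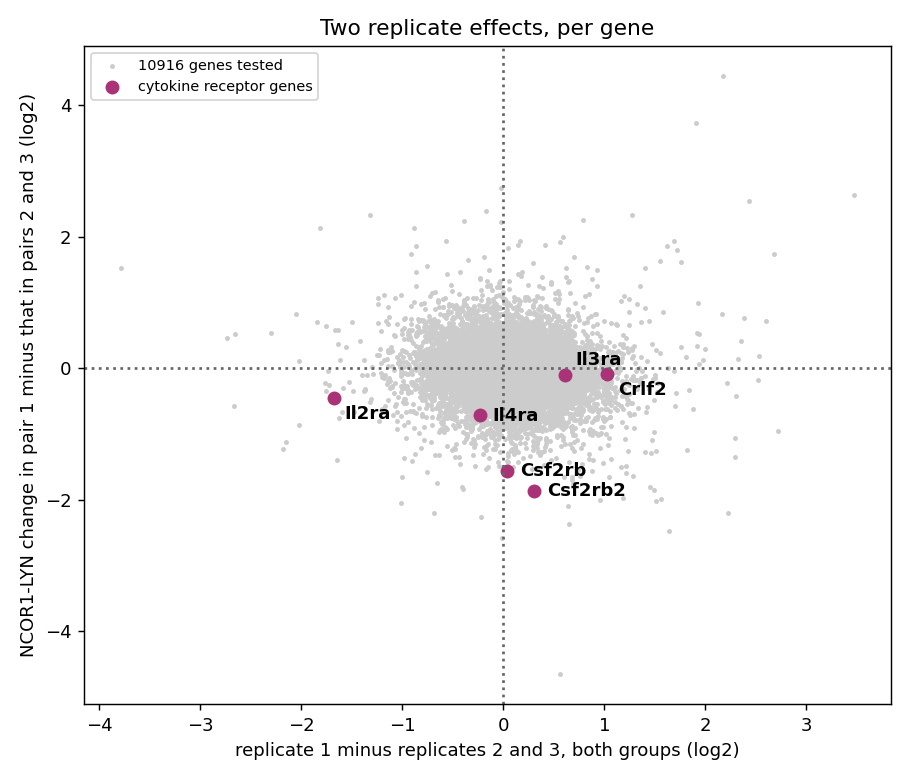
For each gene tested (grey), the log2 difference of replicate 1 from replicates 2 and 3 over both groups (horizontal) and the difference of the NCOR1-LYN change in pair 1 from that in pairs 2 and 3 (vertical), with the 6 receptor genes in purple. Csf2rb and Csf2rb2 lie near the lower edge at −1.56 and −1.86, Il2ra near the left edge at −1.68, and Crlf2 to the right at 1.03.

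With replicates 2 and 3 alone, 2 arrays a group, 4 receptor genes passed in limma, against 744 of all genes (6.82%, of which 3.18% higher and 3.64% lower). Csf2rb, Csf2rb2 and Il4ra were higher and Il2ra lower with NCOR1-LYN, with log2 fold changes of 0.87 ± 0.10, 0.85 ± 0.07, 0.41 ± 0.09 and −0.41 ± 0.10. This fit leaves out the pair in which Csf2rb, Csf2rb2 and Il4ra were lower, with the unlike pairs already known. Its calls thus describe replicates 2 and 3 and are no independent evidence of a change. Over probe sets 4 of 9 passed, all higher, against 926 of 20967 (4.42%, or 2.11% higher). The brighter and the second probe set of Il2ra did not (adjusted p = 0.0698 and 0.521 in limma). With single arrays left out, 0 receptor genes passed in each of the 6 fits. The mean change of Csf2rb ran from 0.15 without NCOR1-LYN 3 to 0.63 without control 1, and that of Il2ra from −1.05 without control 1 to 0.07 without NCOR1-LYN 1.

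By a fixed rule, the genes most like Csf2rb and Il2ra over the 6 arrays were looked up among 1696 genes, the receptor genes themselves left out, with a range of at least 1 on the log2 scale. For Csf2rb these were Tent5a (r = 0.97), the lysosomal arylsulfatase gene Arsb (0.96), the muscle LIM protein gene Csrp3 (0.95), the chemokine receptor gene Cxcr4 (0.90) and the integrin gene Itgb7 (0.89). Arsb gave signals of 959, 485 and 500.1 in control and 699, 931 and 1096 in NCOR1-LYN cells, with control 1 and NCOR1-LYN 2 and 3 high. Of the 1696 genes, 4 had an r above 0.9 with Csf2rb and 126 with Il2ra. For Il2ra the 5 were Sdf2l1 (r = 0.995), the survival gene Mcl1 (0.994), Ube2d2a (0.992), Arhgef25 (0.991) and Arhgap5 (0.988). Mcl1 gave 5520.3, 9347 and 9256 in control and 4058, 7718 and 7666 in NCOR1-LYN cells, low in both replicate 1 arrays. These correlations run over 6 arrays in which replicate 1 stands apart, and describe them only.

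Other genes of the pathway gave few calls. Over all 10916 genes tested, 519 had an unadjusted p under 0.05 in limma without the block and 1233 with it. Of 10 tested genes among 25 other class I cytokine receptors, 0 passed in limma with or without the block, 0 had an unadjusted p under 0.05 without it and 1 with it, and 4 were above and 6 below 0, with a median of −0.06. The 4 with the largest changes were Crlf3 (−0.24), Il27ra (0.21), Il21r (−0.20) and Epor (−0.18), all on the log2 scale. Of the 5 tested class II receptors, which bind interferons and interleukin 10, 0 passed in limma (0 with an unadjusted p under 0.05, and 1 with the block), with a median of −0.10. Ifngr2, a chain of the interferon gamma receptor, had −0.48, Il10rb −0.21, Ifngr1 0.13 and Ifnar1 −0.10. Of 11 ligands of the receptors, 2 were tested, Il4 (−0.00) and Il15 (−0.16), and the genes of interleukins 2, 3, 5 and 7, GM-CSF and TSLP were below the filter.

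Of 21 tested genes that carry the signal from the receptors (JAK kinases, STAT factors, adaptors, PI3K and RAS-ERK components), 0 passed in limma with or without the block (0 with an unadjusted p under 0.05 without it and 3 with it), with a median of 0.03. The STAT factor gene Stat3 had a log2 fold change of 0.41 ± 0.19, the kinase gene Jak2, whose product binds the beta chain, 0.34 ± 0.23, and the adaptor genes Gab2 and Sos1 0.32 and 0.31. Jak2 gave 1817, 1181 and 925 in control and 1451, 1636 and 1776 in NCOR1-LYN cells. Control 1 was its highest array.

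Of 14 tested genes that dampen cytokine receptors, 0 passed in limma and 1 rose with the block, with a median of −0.07. Unadjusted p in limma was under 0.05 for 2 without the block and 5 with it, against 519 and 1233 of all genes. The gene that passed with the block was Cish, which encodes a SOCS protein that STAT5 induces. Its signals were 786, 1910 and 2104 in control and 2536, 4276 and 3931 in NCOR1-LYN cells, and all NCOR1-LYN arrays were above all control arrays. It had a log2 fold change of 1.21 ± 0.15 with the block (adjusted p = 0.0221 in limma) and pair changes of 1.61, 1.14 and 0.88. The other gene with an unadjusted p under 0.05 without the block was Dok2, an adaptor gene. It gave 2532, 3325 and 3720.3 in control and 2010, 1965 and 1694 in NCOR1-LYN cells. All its NCOR1-LYN arrays were below all control arrays, with a log2 fold change of −0.72 ± 0.17 that did not pass (adjusted p = 0.417 in limma, or 0.111 with the block). Of all genes tested, 5.18% were higher and 6.06% lower without overlap of the groups. Cish was thus higher in the replicate 1 pair too, where Csf2rb, Csf2rb2 and Il4ra were lower. In the interaction test 0 of 10 other class I receptors, 1 of 5 class II receptors (Ifngr1), 1 of 2 ligands (Il15), 4 of 21 signal genes (Jak2, Stat5a, Sos1 and Pik3r1) and 5 of 14 dampening genes (Cish, Ptpn6, Inpp5d, Cblb and Dok2) passed, against 12% of all genes. Their signs were mixed. The difference was positive for Sos1, Cish and Dok2, and negative for Ifngr1, Il15, Jak2, Stat5a, Pik3r1, Ptpn6, Inpp5d and Cblb. These names were chosen after their values were seen.

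**Figure D4:**
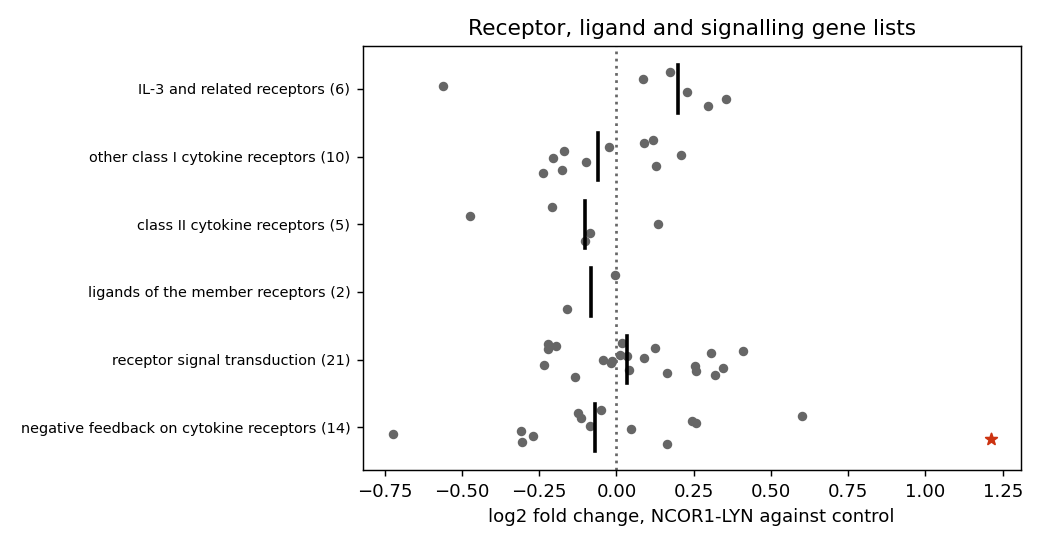
Log2 fold change of NCOR1-LYN against control without a block for each tested gene of the receptor list and of 5 lists of related receptors, ligands and signalling genes (number tested in brackets), with the median as a black bar. The red star is Cish at 1.21, the only gene shown that passed with the replicate block, and the receptor list has the highest median, 0.20, with Il2ra at −0.56.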

How the data were processed

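The 6 arrays measured RNA of Ba/F3 cells, 3 per group. The authors deposited 1 intensity for each probe set, on a linear scale. MAS5 was used, per the submitters' processing notes, and neither its version nor a genome build is given in the sources used here. Every array had a mean of 500.0 after trimming 2% at each end. Probe sets were named from the platform annotation, in which 34945 of 45101 had exactly 1 gene symbol, 932 had several and 9160 had none, besides 64 control probe sets. Depth has no meaning for arrays, and their number limits the precision.

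Signals were used as log2(signal + 64). Genes were represented by their brightest probe set, and genes under the 40th percentile in mean log2 value (signal 47.0) were dropped, leaving 10916 of 18193. The fit over probe sets used the same filter (41.6) and left 20967. Tests were limma (3.58.1, in R 4.3.3) with lmFit, eBayes and an intensity trend, two-sided, with Benjamini-Hochberg adjustment over all genes or probe sets tested and a threshold of 0.05. Residual degrees of freedom were 4, or 2 with the replicate block or the interaction. Members, lists, tests and listed alternatives were chosen with earlier results of these data known. Named genes were all members, of each list the genes past the threshold or at most 4 with the largest change, and the 5 genes, other than members, most like Csf2rb and Il2ra.

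The replicate numbers were taken to pair the arrays, since deviations from the group means correlated across genes at 0.62, 0.41 and 0.44 in the same-numbered pairs, above the limit of 0.1. The labels state no shared day. The crossed correlations of replicates 2 and 3 were 0.39 (control 2 with NCOR1-LYN 3) and 0.48, so pairs 2 and 3 were not told apart. Alternatives covered the block, the offset, the filter, quantile normalization, array weights, the intensity trend, the mean of all probe sets and arrays left out.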

Additional observations from a re-analysis of the deposited data

How the results depend on the processing

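Each alternative changed 1 choice, except that the replicate block was also fitted with both replicate 1 arrays left out. Of the 17 alternatives, 14 also gave 0 receptor genes past the threshold in limma. Array weights gave 2 (Csf2rb and Csf2rb2), leaving out both replicate 1 arrays gave 4, and that with the replicate block gave 5. The last of these fits has 1 residual degree of freedom, so its counts, here and below, carry little weight. In that order of settings the signal genes gave 2, 4 and 7 calls and the dampening genes 2, 3 and 4, and the dampening genes gave 1 with the replicate block alone. Without both replicate 1 arrays the class II receptors gave 2 calls, with or without the block, and the other class I receptors 1 with the block. Over all genes, 9 calls became 90 with the replicate block, 1 without the filter, 1 with it at the 60th percentile, 502 with array weights, 744 without both replicate 1 arrays and 1145 in that fit with the replicate block, and leaving out single arrays gave 0 to 15. The 7 probe set calls became 152 with the replicate block, 1 without the filter, 4 with quantile normalization and 926 without both replicate 1 arrays, and 0 to 12 with single arrays left out. The replicate block changed no receptor call. Without the filter, 494 genes passed the interaction test in place of 1314, and Il4ra did not (adjusted p = 0.057), while Csf2rb and Csf2rb2 passed in all 4 alternatives of that test. Directions reversed in the leave-one-out fits alone. With single arrays left out, the log2 fold change of Il3ra ran from −0.10 to 0.31 (below 0 without control 3, −0.07, or NCOR1-LYN 1), of Csf2rb2 from −0.010 (without control 3) to 0.64, of Il2ra from −1.05 to 0.072 (without NCOR1-LYN 1) and of Crlf2 from −0.034 (without NCOR1-LYN 1) to 0.65. No array was left out of the interaction test, which would have lost the replicate 1 pair or left 1 residual degree of freedom. The causes of these shifts were not tested. Dim probe sets, such as those of Il7r, have uncertain changes.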
